A study of Trachinotus blochii with 12 samples.

Results

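The gene models described here are those abundant in both liver and brain under severe hypoxia in Trachinotus blochii, the golden pompano, which is farmed as a food fish. They were chosen by level: a mean of at least 400 over the 6 liver libraries and of at least 200 over the 6 brain libraries. Of 18490 gene models, 202 met the liver limit, 236 met the brain limit and 91 met both. The 91 were thus 45.0% of the gene models past the liver limit and 38.6% of those past the brain limit. The deposited values are taken to be FPKM, that is fragments per length of gene and per size of library, although the files do not name the unit. There were 4 groups of 3 RNA-seq libraries, from livers of Tol fish, livers of Intol fish, and brains of Tol and of Intol fish, all 2 months old and held at 0.9 ± 0.1 mg/L oxygen. Oxygen was lowered within 2 h in all groups. Tol fish were still normal after 24 h of hypoxia, and Intol fish were dying, with loss of balance, within 1 h. All fish were fasted during the experiment and given an excess of the anaesthetic MS-222 before they were killed. The Tol fish thus spent about 23 h longer in hypoxia and without food than the Intol fish, which cannot be told apart from status, and no group was kept at normal oxygen.

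Transcripts that are abundant in tissues as unlike as liver and brain are, in vertebrates generally, often those of proteins that every cell makes in bulk, such as ribosomal proteins and factors of protein synthesis. Protein synthesis is a large consumer of energy, and its control is a known part of the response of fish to low oxygen. No gene names accompany the IDs in the files, so the identity of the 91 gene models is not known here, and no role is given to any of them. For the same reason IDs are printed for 6 gene models, and the others are described by rank and count. The gene lists set for ribosomal proteins, translation factors, oxidative phosphorylation, glycolysis, ferritin and blood, and the markers of liver and brain cells, matched 0 gene models, so the tissue labels were not checked against markers.

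Summed values ranged from 360680 to 373167 per brain library and from 581739 to 622240 per liver library. They are not read counts, so sequencing depth is unknown. Across all gene models, log2 values correlated at 0.453 to 0.473 between liver and brain libraries and at 0.940 or above between liver libraries. Brain pairs with Intol brain replicate 3 correlated at 0.982 to 0.987, below the other brain pairs at 0.989 to 0.994, so that library stood apart. How many fish entered a library, and whether libraries came from separate fish, the labels do not say, so a p-value here covers only the spread between the samples sequenced.

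Levels of the 91 gene models, which chose them and are given as description, spanned a wide range, while most had a like ratio of liver to brain. In liver the mean of 6 libraries ran from 464 to 50369 FPKM with a median of 2000 FPKM, and in brain from 239 to 2769 FPKM with a median of 693 FPKM. Among all gene models, 62 of the 91 were in the top 100 in liver and 72 in the top 100 in brain. In values as deposited, the ratio of the liver mean to the brain mean had a median of 2.77 and quartiles of 2.46 and 3.08. It lay between 2 and 4 for 73 of the 91. Summed values were larger in liver libraries, at 581739 to 622240, against 360680 to 373167 in brain libraries. At equal sums the ratios would be lower, and they were not computed. Across the 91 gene models, which share libraries and are not replicates, mean levels in liver and brain correlated at a Spearman rho of 0.615 and, on log2 levels, a Pearson r of 0.308. None of the 91 lay less than 10% above a limit. Of the gene models that met the brain limit, 2 lay less than 10% below the liver limit. They had 367 and 375 FPKM, with Tol minus Intol changes of -0.11 and -1.72 in liver, in that order. Of those that met the liver limit, 4 lay less than 10% below the brain limit, at 183 to 190 FPKM, with changes of -0.12 to 0.29 in brain. Both limits were met in every library by 88 of the 91. The 91 kept their order between groups, with a Spearman rho across gene models of 0.992 between mean levels in Tol and Intol livers and of 0.988 between those in Tol and Intol brains. Few had neighbouring ID numbers: 3 pairs were consecutive, among 5 gene models.

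**Figure D1:**
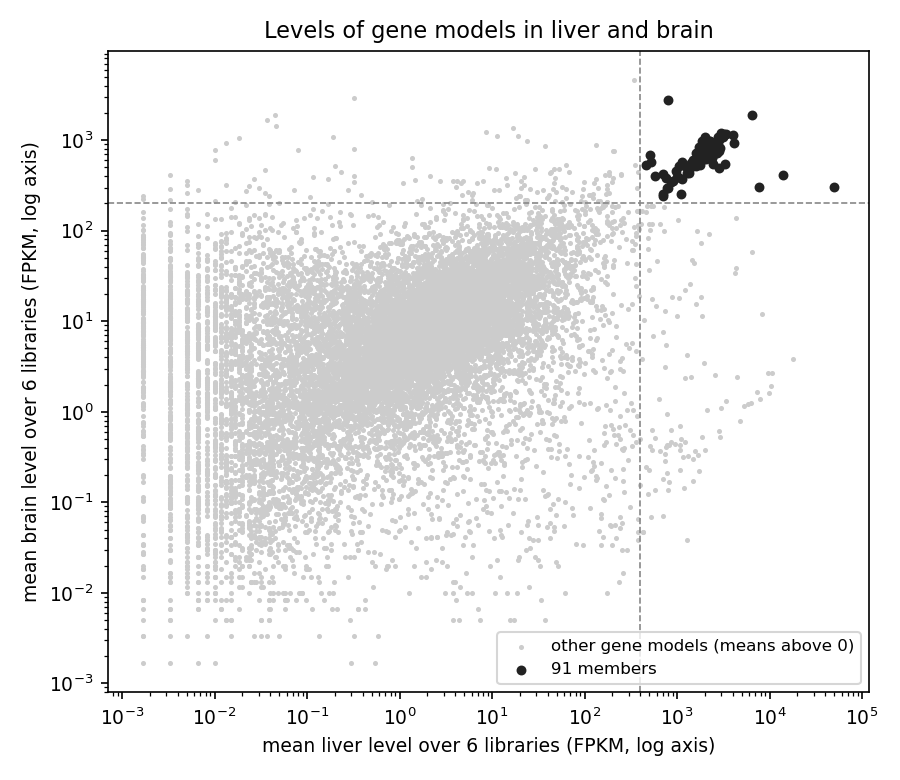
Mean level in liver (x axis, FPKM, log axis) against mean level in brain (y axis, FPKM, log axis), each over 6 libraries, with the 91 chosen gene models in black, other gene models with means above 0 in grey, and dashed lines at the limits of 400 and 200. In values as deposited, most black points form a compact cloud in which liver is about 2.77 times brain. Of the rest, 3 lie far to the right with ratios above 10, and 4 have a ratio below 1. Ratios are not corrected for the larger summed values of liver libraries.

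A few gene models lay far from the ratio of most. The most abundant of the 91 in liver, first among all gene models there, had 52110, 49286 and 59862 FPKM in Tol livers, against 43610, 47993 and 49354 FPKM in Intol livers. It made up 8.20% to 9.79% of the summed values of a Tol liver and 7.50% to 8.05% of an Intol liver, and its liver level was 166 times its brain level. Values of the groups overlapped slightly as deposited, while these shares of the summed values did not overlap. In values as deposited, its liver change of 0.19 ± 0.09 (SE) on the log2(FPKM + 1) scale missed the threshold (limma adjusted p = 0.112). The gene models that came next in liver had ratios of 33.7 and 25.4, and the next ratio was 6.07.

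At the other end, 4 of the 91 were higher in brain than in liver in values as deposited. This count was not made at equal sums. The lowest ratio, 0.290, belonged to the most abundant of the 91 in brain, at 2577, 2558 and 2708 FPKM in Tol brains and 2730, 2443 and 3595 FPKM in Intol brains. Its highest value was in Intol brain replicate 3, the brain library that stood apart. Its levels were 821 ± 116 FPKM in Tol livers and 785 ± 53.3 FPKM in Intol livers (SD, n = 3 each).

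The 91 gene models varied little within a group. The median coefficient of variation over the 3 libraries was 4.45% in Tol liver and 8.22% in Intol liver, and 2.90% in Tol brain and 4.58% in Intol brain. Over all gene models tested in the tissue it was 14.7% in Tol liver and 16.2% in Intol liver, and 7.44% in Tol brain and 9.62% in Intol brain. Those include gene models of much lower level, and sets of like level were not compared. Together the 91 held 39.8% ± 0.763 of the summed values in Tol livers and 40.8% ± 1.14 in Intol livers (SD, n = 3 each). In brain they held 18.0% ± 0.190 in Tol and 17.0% ± 0.427 in Intol (SD, n = 3 each). Without the most abundant liver gene model the liver shares were 30.9% ± 1.36 in Tol and 33.0% ± 1.24 in Intol.

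Most of the 91 went up and down together from library to library. In liver, 67 of them correlated above 0.8 with the median profile of the others over the 6 libraries, and in brain 62 did, with medians of 0.916 and 0.898. These are descriptions over 6 values each, which hold the Tol against Intol difference and each library's scaling. Neither they nor the counts of extremes that follow were made for other gene models. Intol liver replicate 2 held the highest liver value of 75 gene models, and Tol liver replicate 3 the lowest of 68. Intol brain replicate 1 held the lowest brain value of 69. Set against each gene model's own mean over the 6 livers, the median deviation was -0.03, -0.05 and -0.14 on the log2 scale in Tol livers, against -0.01, 0.19 and 0.03 in Intol livers. In brain it was 0.06, 0.07 and 0.05 in Tol, against -0.13, -0.03 and -0.03 in Intol. The library medians of Tol thus lay below those of Intol in liver and above them in brain. Over all gene models tested, the median deviation was -0.10, -0.05 and -0.15 in Tol livers, against 0.12, 0.06 and 0.13 in Intol livers, so the liver split was not specific to the 91. In brain it was 0.02, 0.01 and 0.02 in Tol, against -0.04, -0.03 and 0.01 in Intol, with overlap.

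**Figure D2:**
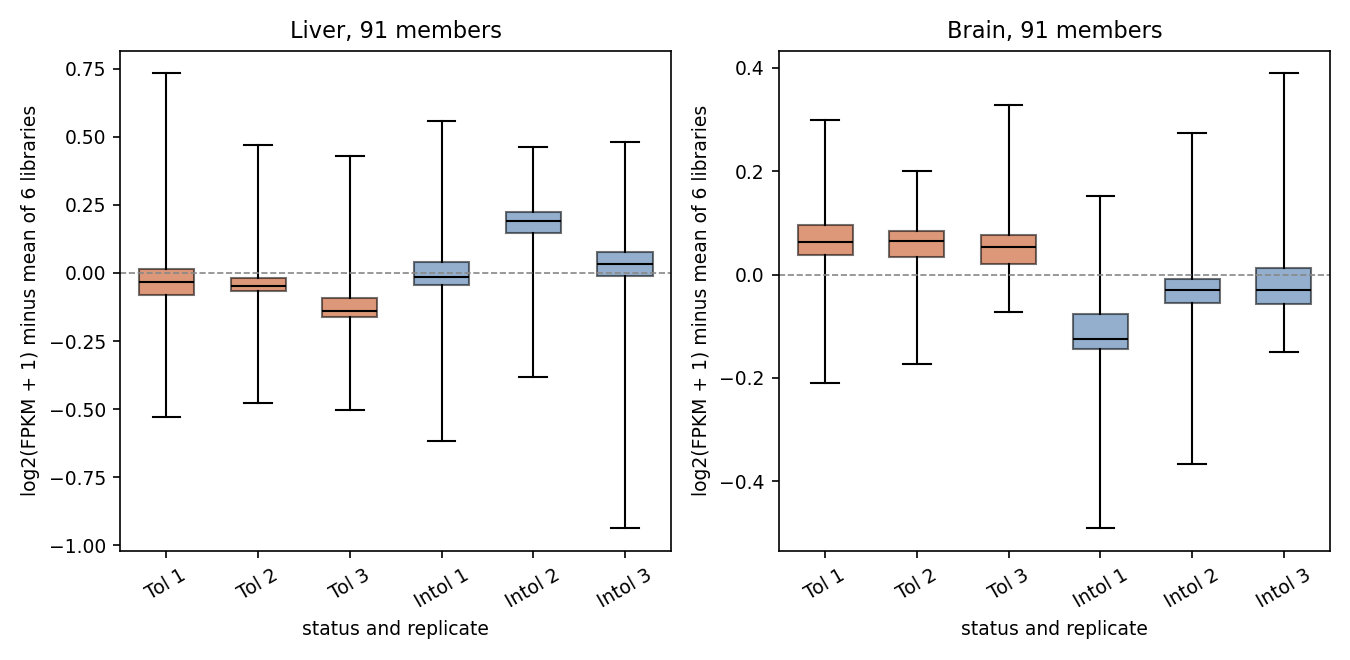
Deviation of each of the 91 gene models from its own mean over the 6 libraries of a tissue (y axis, log2(FPKM + 1) scale) by library (x axis), with liver on the left and brain on the right, Tol in orange and Intol in blue. Boxes show quartiles and median, and whiskers reach the extremes. In values as deposited, Intol 2 stands highest in liver with a median of 0.19, and Intol 1 stands lowest in brain with a median of -0.13.

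In liver, 1 of the 91 gene models rose and 3 fell in Tol against Intol at an adjusted p under 0.05 (limma, Benjamini-Hochberg over all 9109 gene models tested). This was 4 of 91, where 37.1% of all gene models tested were called, 7.49% higher and 29.6% lower. At an unadjusted p under 0.05 (limma) there were 9 of 91, against 47.7% of all gene models tested. In a fit of all 12 libraries, which shares the spread with brain, 1 was higher and 20 were lower in liver. Of the 14817 gene models in that fit, 7.09% were called higher and 25.6% lower, 32.7% in all. The changes of the 91 were small and alike. Their median was -0.14 on the log2(FPKM + 1) scale with quartiles of -0.18 and -0.09, while all gene models tested had a median of -0.20 with quartiles of -0.55 and 0.10. The change was below 0 for 84 of the 91, against 67.2% of all gene models tested. All 3 Tol values lay below the 3 Intol values for 45 of the 91 and above them for 1, where 40.1% and 12.3% of all gene models tested did so. The median SE of a change was 0.10 for the 91 and 0.16 for all gene models tested, and the 95% interval lay within 0.5 of 0 for 80 of the 91. In bulk tissue, fewer cells of a type and less RNA per cell cannot be told apart.

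The small downward lean in liver depended on how libraries were scaled. Median-ratio scaling moved the median of all gene models tested by more than 0.1, from -0.20 as deposited to 0.03, and the median of the 91 to 0.17. The median of the 91 stayed below 0 after scaling to equal sums, at -0.13, and after quantile normalization, at -0.06. The share of calls that were lower in Tol, over all gene models tested, was 79.8% in values as deposited, 50.6% after median-ratio scaling and 50.8% after quantile normalization. After median-ratio scaling, Tol values lay wholly below Intol values for 2 of the 91 and wholly above for 16, where 24.3% and 27.0% of all gene models tested did so. Relative to the median of all gene models tested, the 91 stood at 0.06 in values as deposited, at 0.14 after median-ratio scaling and at -0.08 after quantile normalization, and also below 0 with a pseudocount of 5 (-0.03) or no filter (-0.07). Whether the group as a whole was higher or lower than other gene models in Tol liver thus had no stable sign.

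The single rise among the 4 liver calls was that of Trachinotus_GLEAN_10008802, the second most abundant of the 91 in liver. It had 14806, 18796 and 18305 FPKM in Tol livers, against 8852, 10412 and 13365 FPKM in Intol livers, with no overlap. The log2 change was 0.68 ± 0.16 (SE), 1.59-fold, with an adjusted p of 0.0121 (limma), and it was higher in 3 of 3 Tol livers than in any Intol liver. In brain it had 403 ± 33.8 FPKM in Tol and 432 ± 19.4 FPKM in Intol (SD, n = 3 each). After quantile normalization its liver change was 0.22 with an adjusted p of 0.335 (limma). That normalization gives each rank the same value in every library, and this gene model ranked 3 among all by its mean level in liver. Why the call was lost was not tested.

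The largest fall was that of Trachinotus_GLEAN_10014215, which ranked 67 of the 91 in liver, at 880, 1020 and 895 FPKM in Tol livers, against 1820, 1749 and 1634 FPKM in Intol livers. The log2 change was -0.90 ± 0.11 (SE, limma adjusted p = 0.00078), and Tol livers held 0.537 times the Intol level. Its brain values were lower and close together, at 494 ± 40.8 FPKM in Tol and 550 ± 32.4 FPKM in Intol (SD, n = 3 each).

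Trachinotus_GLEAN_10015660, the third most abundant of the 91 in liver, also fell, to 6078, 5269 and 5289 FPKM in Tol livers, against 10165, 9540 and 9507 FPKM in Intol livers. The log2 change was -0.81 ± 0.09 (SE, limma adjusted p = 0.000576). In brain it had 310 ± 24.1 FPKM in Tol and 292 ± 6.85 FPKM in Intol (SD, n = 3 each). After median-ratio scaling, these 3 gene models had changes of 0.99, -0.59 and -0.51 in liver and were still called.

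The remaining liver call, described after its value was seen, was close to the threshold. It had 2606, 2589 and 2643 FPKM in Tol livers, against 2928, 3554 and 3134 FPKM in Intol livers, a log2 change of -0.29 ± 0.10 (SE, limma adjusted p = 0.0485). After median-ratio scaling its change was 0.02 with an adjusted p of 0.936, and in values as deposited it was called in 1 of 6 fits with a library left out. The widest liver change that was not called, 0.67 ± 0.30 (SE), belonged to a gene model with overlapping values of 1106, 844 and 631 FPKM in Tol and 696, 608 and 347 FPKM in Intol livers, and its adjusted p was 0.117 (limma).

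**Figure D3:**
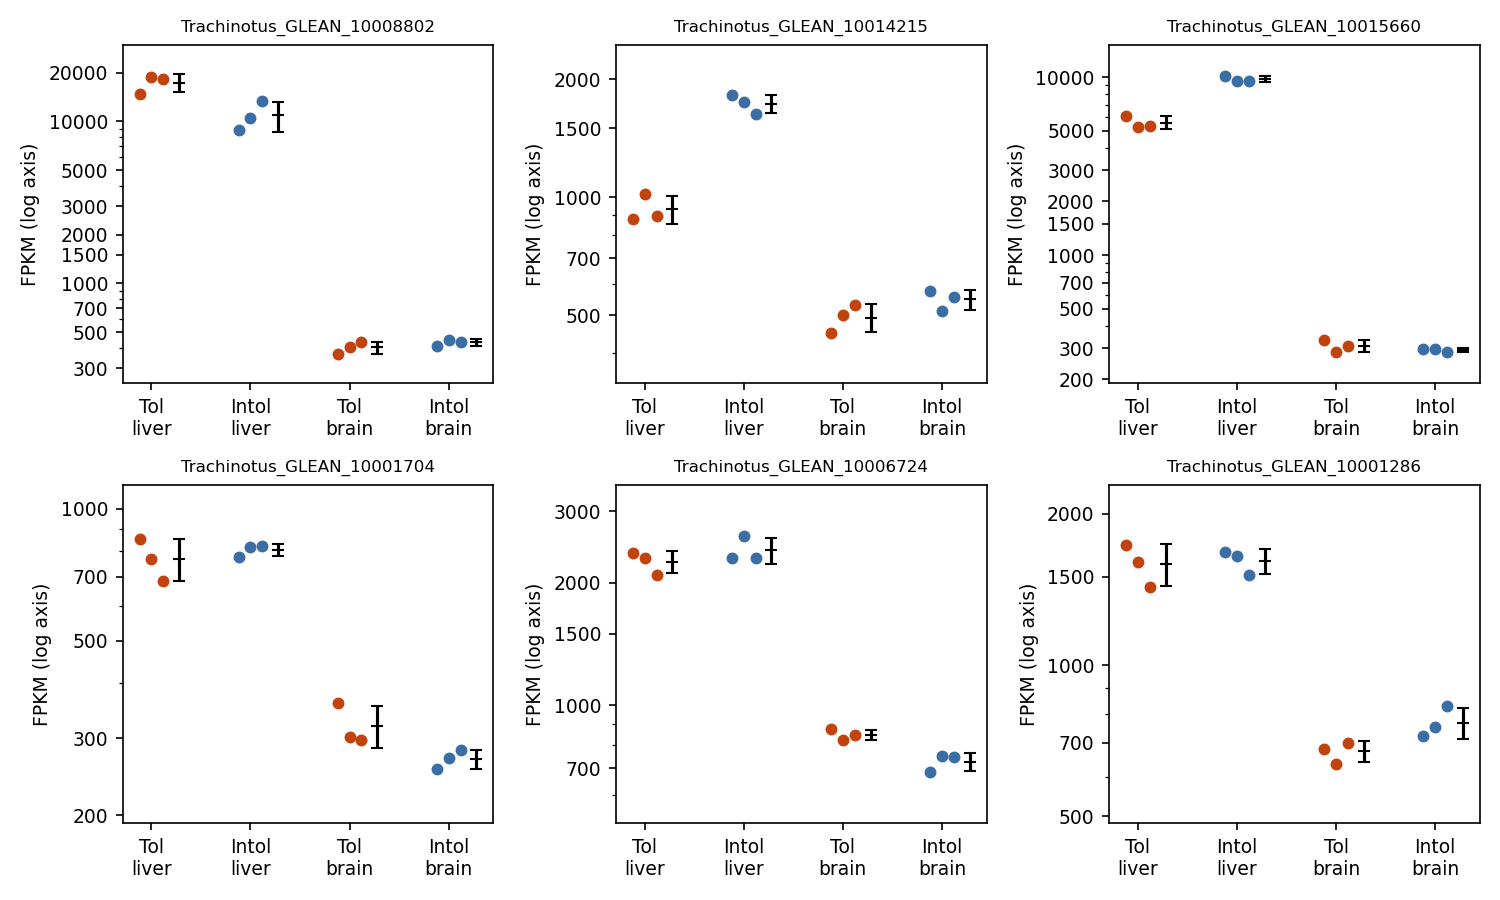
FPKM (y axes, log axis) of the 6 gene models printed by ID in liver and brain libraries, Tol left of Intol in each (x axes), with 1 point per library and the mean with SD (n = 3) as a bar beside the points. The top row shows the 3 largest liver calls, whose Tol and Intol livers do not overlap, and the bottom row 3 gene models with a brain difference that was not called.

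In brain, 0 of the 91 gene models passed an adjusted p under 0.05 (limma, over 14146 gene models), where 0.0212% of all gene models tested did (1 higher and 2 lower, or 4 and 4 after median-ratio or quantile scaling), and the smallest adjusted p among the 91 was 0.146. Small differences ran the same way in most of them. At an unadjusted p under 0.05 (limma), 45 of the 91 were higher and 1 was lower in Tol, against 10.9% and 6.1% of all gene models tested. The change was above 0 for 83 of the 91, against 60.1% of all gene models tested. The 3 Tol values lay wholly above the 3 Intol values for 57 of the 91 and wholly below for 1, where 15.0% and 7.78% of all gene models tested did so. The median change was 0.12 with quartiles of 0.08 and 0.15, against 0.04 for all gene models tested with quartiles of -0.07 and 0.15. Because the 91 move together from library to library, these counts are not separate observations.

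The upward lean in brain was present under each scaling tried, at a smaller size. The median of the 91 was 0.08 after median-ratio scaling and 0.06 after quantile normalization, and relative to all gene models tested it was 0.08, 0.07 and 0.04 in the deposited, median-ratio and quantile values. After median-ratio scaling, Tol values lay wholly above for 41 of the 91, against 10.4% of all gene models tested. Without Intol brain replicate 1, the lowest library, the median was 0.09 and 58 of the 91 had Tol values wholly above, against 17.8% of all gene models tested. Without Intol brain replicate 3, which stood apart, the median was 0.14 and the count 69, against 27.8%.

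The brain differences of single gene models were modest. Among the 91 with Tol values wholly above, the largest difference was that of Trachinotus_GLEAN_10001704, at 360, 302 and 297 FPKM in Tol brains, against 255, 270 and 282 FPKM in Intol brains. It was 0.24 ± 0.08 (SE) on the log2 scale with an adjusted p of 0.217 (limma). Trachinotus_GLEAN_10006724 had 872, 822 and 844 FPKM in Tol brains, against 685, 749 and 745 FPKM in Intol brains. Its difference of 0.22 ± 0.05 (SE) had the smallest adjusted p of the 91, 0.146 (limma), and neither gene model was called.

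The single gene model of the 91 with Tol brains wholly below Intol brains was Trachinotus_GLEAN_10001286. It had 682, 637 and 701 FPKM in Tol, against 724, 753 and 830 FPKM in Intol brains, a difference of -0.19 ± 0.06 (SE, limma adjusted p = 0.219). The widest brain difference of the 91, 0.45 ± 0.13 (SE), belonged to a gene model with 686, 601 and 715 FPKM in Tol, against 435, 442 and 602 FPKM in Intol brains. The lowest Tol and the highest Intol value nearly coincided, the highest Intol value was in replicate 3, and the adjusted p was 0.183 (limma). This gene model was 1 of the 4 that were higher in brain than in liver.

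The small changes mostly ran in opposite directions in liver and brain, before any other scaling. In values as deposited, 80 of the 91 had a change below 0 in liver and above 0 in brain, 4 the opposite, 3 were above 0 in both and 4 below 0 in both. Of the 8464 gene models tested in both tissues, 39.6% were below 0 in liver and above 0 in brain, 20.6% above 0 in both and 27.8% below 0 in both, the rest being the opposite. The interaction, which subtracts the brain change from the liver change in 1 fit of all 12 libraries, was called for 29 of the 91 with the liver change below the brain change and for 1 with it above (limma, adjusted p under 0.05, over 14817 gene models). Of all gene models tested, 20.2% and 3.66% were called in these directions, 23.9% in all. The median interaction was -0.26 for the 91 and -0.16 for all gene models tested. The 29 had a median change of -0.18 in liver and 0.15 in brain, and their interactions ran from -0.89 to -0.27. Of the 29, 3 were liver calls and 28 had a brain change above 0.

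This count depended on the scaling and on single libraries. After median-ratio scaling, 1 of the 91 was called with the liver change below the brain change and 5 with it above, where 10.1% and 11.5% of all gene models tested were. After quantile normalization the counts were 12 and 1, where 9.24% and 7.89% of all gene models tested were called. Of the interaction calls over all gene models tested, the share with the liver change below was 84.7% as deposited, 46.8% after median-ratio scaling and 53.9% after quantile normalization. The count of 29 became 9 when Tol brain replicate 1 was left out and 10 when Intol brain replicate 1 was, where 14.6% and 14.5% of all gene models tested were called, so that the share of the 91 was then the lower of the pair. It was 14 and 15 without Tol brain replicates 2 and 3, against 17.4% and 15.3% of all gene models tested, and 18 without Intol brain replicate 2, against 17.5%. It was 19 and 18 without Tol liver replicates 2 and 3, against 17.4% and 18.1%, and 46 without Intol liver replicate 1, against 18.1%. The fit takes 1 spread per gene model over both tissues, although the median SE of the 91 was 0.10 in liver and 0.05 in brain.

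At the ends of the interaction stood Trachinotus_GLEAN_10015660 at -0.89 ± 0.10 (SE, limma adjusted p = 0.000411), and Trachinotus_GLEAN_10008802 at 0.79 ± 0.19 (SE, limma adjusted p = 0.0151). Both were called after median-ratio scaling too, at -0.50 and 1.18. After quantile normalization the interaction of Trachinotus_GLEAN_10008802 was 0.46 and was not called (limma adjusted p = 0.213). Across the 91 gene models, which are not replicates, the liver and brain changes correlated at a Pearson r of -0.055 and a Spearman rho of -0.122.

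**Figure D4:**
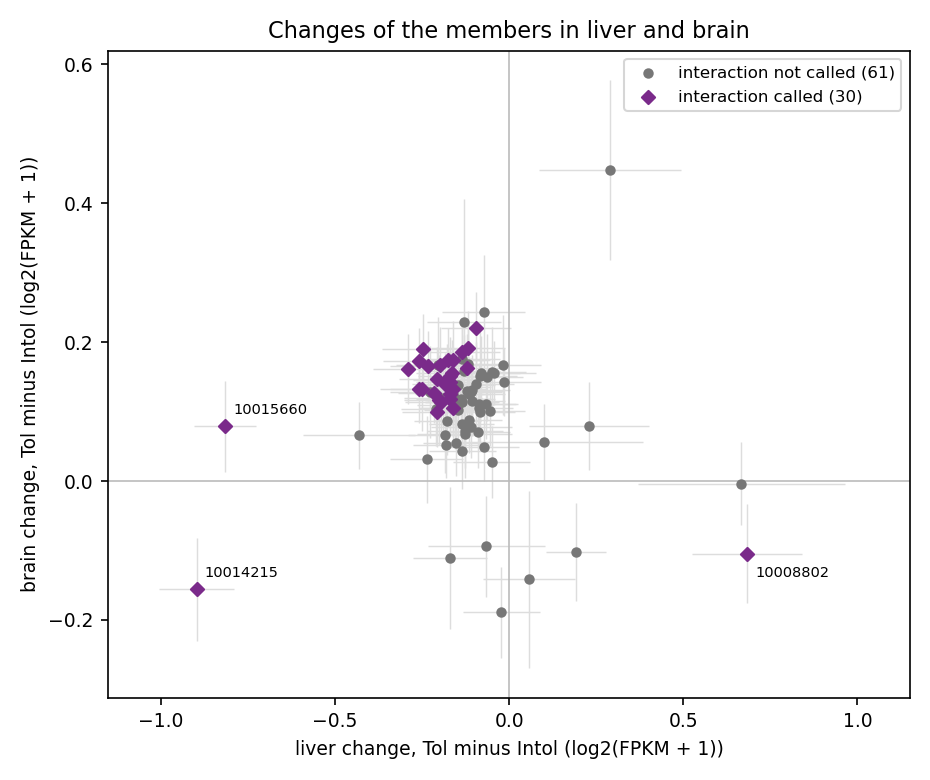
Tol minus Intol change in liver (x axis) against that in brain (y axis), both on the log2(FPKM + 1) scale, for the 91 gene models with SE bars, where purple diamonds mark the 30 with a called interaction. Most points cluster near -0.14 in liver and 0.12 in brain, in values as deposited, and the 3 labelled gene models lie far from the cluster along the liver axis. With median-ratio scaling, which is not plotted, the medians of the 91 were 0.17 in liver and 0.08 in brain.

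Gene models abundant in a single tissue were called in liver about as often as all gene models tested, at 43.2% for the liver limit alone and 38.4% for the brain limit alone, against 37.1%. Of 111 that met the liver limit alone, 19 were called higher and 29 lower in Tol liver, with a median change of -0.05 and quartiles of -0.43 and 0.28. Of 145 that met the brain limit alone, 99 passed the filter in liver, and of these 8 were called higher and 30 lower. The size of the change had a median of 0.15 for the 91, against 0.40 for those past the liver limit alone and 0.35 for all gene models tested. In brain, 0 of either kind was called, 14 of 59 tested and 31 of 145 tested had an unadjusted p under 0.05 (limma), against 46 of the 91 and 17.0% of all gene models tested, and the median changes were 0.01 and -0.01, against 0.12 for the 91 and 0.04 for all gene models tested. These differences between sets of gene models are counts and medians and were not tested.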

How the data were processed

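Liver and brain mRNA of Tol and Intol fish was measured by RNA-seq, with 3 libraries per group, grouped by title. Per the labels' protocols, each status had 42 fish, 14 from each of 3 tanks of 80. Their RNA was made into TruSeq libraries for Illumina paired-end sequencing, and cleaned reads were assembled with Trinity. Aligner, counting tool, build and annotation: not given in the sources used here. The deposited values were taken to be FPKM from their decimals and their unequal library sums. No steps of whole reads were found: no bin of 0.02 in the log2 ratio of low values between libraries held more than 6.04% of gene models. The file of Intol brain replicate 2 held 1 further block, equal in all 18490 values to Intol brain replicate 1, which was not used. No other libraries were duplicates.

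limma 3.58.1 (R 4.3.3) was fitted per tissue to log2(FPKM + 1), with trend, robust moderation and group means, over gene models that reached 1 in at least 3 libraries. Changes are Tol minus Intol, and Benjamini-Hochberg adjusted p under 0.05 was a call. All 91 passed the filter in each fit. The fits were tested on simulated data with log2 changes of 1 or 2. Of changes of 1, 62% were recovered in liver, 92% in brain and 58% for the interaction. False calls were 3.68%, 4.98% and 5.77% of calls, in that order. Changes as small as most of those of the 91 were not simulated. The simulated noise was independent between gene models, whereas most of the 91 moved together. The rule for IDs took, per tissue, up to 2 largest rises and 2 largest falls without overlap between groups, called ones first, and the largest called interaction each way. The gene models and lists were chosen with earlier results of these data known. Python 3.11.15, NumPy 2.4.6, pandas 2.3.3 and matplotlib 3.10.9 were used.

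Alternatives were median-ratio, equal-sum and quantile scaling, pseudocounts of 0.1 and 5, dropping the filter or asking for a mean of 5, limma with neither trend nor robust moderation, the replicate number as a block, all 12 libraries in one fit, an absolute log2 change of at least 1, and each library left out. Counts without overlap under other scalings or with a library left out, and medians under the alternatives, were a later addition, chosen with the data seen.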

Additional observations from a re-analysis of the deposited data

Results flagged for a closer look

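The test of the difference between tissues singled out 29 of the 91 gene models with the liver change below the brain change and 1 with the liver change above it (limma, adjusted p under 0.05), where 20.2% and 3.66% of all gene models tested were called. After median-ratio scaling the counts were 1 and 5, against 10.1% and 11.5%. Among the gene models printed by ID, this difference, liver change less brain change, was -0.89 for Trachinotus_GLEAN_10015660, -0.74 for Trachinotus_GLEAN_10014215 with an adjusted p of 0.00185 (limma), 0.79 for Trachinotus_GLEAN_10008802, and -0.32 for Trachinotus_GLEAN_10006724 with an adjusted p of 0.0397 (limma). After median-ratio scaling the call of Trachinotus_GLEAN_10014215 was lost, at -0.35 (limma adjusted p = 0.0629), and so was that of Trachinotus_GLEAN_10006724, at 0.076 (limma adjusted p = 0.688). The call of Trachinotus_GLEAN_10014215 held in 12 of 12 fits with a library left out. It also held after quantile normalization, at -0.44 (limma adjusted p = 0.0337). Trachinotus_GLEAN_10006724 was called in 4 of 12 fits with a library left out and was not called after quantile normalization, nor was Trachinotus_GLEAN_10008802.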

How the results depend on the processing

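In liver, 1 of the 91 was higher and 3 lower. The higher count was 3 after median-ratio scaling, 0 after quantile normalization and 2 with the replicate number as a block. With a library left out it was 1 to 2 (2 without Intol liver replicate 3). Of all gene models tested, 16.6%, 16.9%, 8.63% and 4.13% to 7.58% were called higher, in that order. The lower count was 20 with all 12 libraries in one fit, where the spread is shared with brain, against 25.6% of all gene models tested. It was 2 to 4 with a library left out, against 20.2% to 25.8%. The median liver change was 0.17 after median-ratio scaling, the call near the threshold turned to 0.017 there, and Tol values wholly below numbered 2. That median was -0.13 after scaling to equal sums and -0.06 after quantile normalization. With a library left out, the median ran from -0.18 to -0.08 (without Intol liver replicate 2) and Tol values wholly below numbered 45 to 59, against 43.4% to 46.9% of all gene models tested. In brain the calls were 0 under every alternative, against at most 0.823% of all gene models tested. The median brain change was 0.078 after median-ratio scaling and 0.056 after quantile normalization. With a library left out it ran from 0.09 to 0.14, and Tol values wholly above numbered 58 to 69, against 17.8% to 27.8%. The interaction count of 29 was 1 after median-ratio scaling, 12 after quantile normalization, 19 without trend and robust options, and 9 to 46 with a library left out. Of all gene models tested, 10.1%, 9.24%, 20.2% and 14.5% to 22.1% were called that way, in that order. The opposite count of 1 was 5 after median-ratio scaling, against 11.5%. With a library left out it was 1 to 2 (2 without Intol brain replicate 3), against 2.41% to 4.61%. The median interaction was 0.13 after median-ratio scaling, -0.13 after quantile normalization and -0.30 to -0.21 with a library left out. The interaction of Trachinotus_GLEAN_10006724 turned to 0.076 after median-ratio scaling. In values as deposited, no called change of the 91 reached 1 on the log2 scale, so that limit gave 0 in each count. After median-ratio scaling the called interaction of Trachinotus_GLEAN_10008802 was 1.18. The causes of these differences were not tested.

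Same-numbered Tol and Intol libraries deviated together at r of -0.124 to 0.100 in liver and -0.080 to 0.179 in brain, and no label says what a number marks, so the samples were treated as sharing only a number. Between liver and brain libraries of the same status and number, r was 0.009 to 0.043 in Tol and 0.043 to 0.115 in Intol. Between Tol and Intol, own-number correlations were highest for 0 of 6 liver and 4 of 6 brain libraries. Between liver and brain they were highest for 4 of 6 Tol and 6 of 6 Intol libraries. Yet r passed 0.1 in 1 of 3 Intol and 0 of 3 Tol pairs. The labels state no pairing, and pairing of liver with brain was not tested. With the replicate block, 3 were lower in liver and 0 called in brain, against 29.9% and 0.106% of all gene models tested. With status and number as a block, 36 interactions were called with the liver change below and 1 with it above, against 18.7% and 3.35%. Depth is unknown, so counting error cannot be given.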
